A study of Mus musculus with 21 samples.

Results

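The testis of the newborn mouse at postnatal day 2 (pnd2) was compared with the fetal testis at gestation day 16 (gd16), the stage at which several genes of fetal Leydig cells stood at their highest mean in this course. The comparison was defined by age alone: it holds every array of either age, 3 from pnd2 and 3 from gd16, 6 of the 21 arrays of the series. Both groups were untreated wild-type male mice of the outbred CD-1 stock. The gd16 samples (replicates 7, 8 and 9) were at Theiler stage 24 and the pnd2 samples (replicates 1, 2 and 3) at Theiler stage 27. The whole organ was excised and frozen, so each array reads the summed RNA of all testis cells, and fewer cells of a type cannot be told apart from less RNA per cell. These samples were not pooled. Each was the pair of testes of 1 animal, and each animal had its own dam, per the series' design text. The arrays of gestation day 18 (gd18, replicates 4, 5 and 6, Theiler stage 26, handled alike) lie between both ages and are given beside them as an intermediate point.

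The fetal testis makes androgen in fetal Leydig cells, which lie between the cords. StAR brings cholesterol into the mitochondrion, Cyp11a1 cuts its side chain, and Cyp17a1 makes the androgen precursor, while the cholesterol itself can be taken up or built from acetyl units by the enzymes of the mevalonate and sterol pathways. Inside the cords, Sertoli cells surround germ cells that stop dividing before birth, load a piRNA pathway (Piwi proteins with small RNAs that silence transposons) and lay down new DNA methylation with the help of Dnmt3l. Around birth these germ cells resume division and give rise to spermatogonia, while adult Leydig cells form only later in postnatal life.

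Values are probe-set intensities on a linear scale. Changes are given as differences of log2(intensity + 22.4) with the standard error (SE, after the ± sign where no SD is named) of a limma fit. Changes of dim genes come out too small on it. A gene was called at a Benjamini-Hochberg adjusted p below 0.05 over 14338 genes. A stage mean below 71.6 is called near background. The arrays correlated at r = 0.973 to 0.976 within gd16, at 0.976 to 0.979 within pnd2 and at 0.949 to 0.959 between them. These correlations were taken over log2(intensity + 22.4) of all probe sets except controls. The 3′ to 5′ ratio of the actin control probes was 1.30 to 1.34 at gd16 and 1.33 to 1.42 at pnd2. The median intensity was 129 to 145 at gd16 and 106 to 113 at pnd2. All arrays carried the male transcripts Eif2s3y, at 1085 and 1054 on average, and Kdm5d, at 592 and 524, while Xist was near background in both groups. Uty, also Y-linked, was the called one of these 4 genes, at -0.81 (adjusted p = 0.0208), a call lost without pnd2 replicate 2, pnd2 replicate 3, gd16 replicate 7, gd16 replicate 8 or gd16 replicate 9 and with arrays centred on their medians. The Sertoli genes Amh, Sox9, Dhh and Wt1, which define the cords, lay far above background on all 6 arrays.

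Between gd16 and pnd2, 3367 of 14338 genes (23.5%) were called, of which 1329 rose (9.27% of all genes) and 2038 fell (14.2%). A change of at least 2-fold on the log2 scale was found in 1143 genes (7.97%), 323 of them risen and 820 fallen. At 4-fold or more there were 40 rises and 164 falls. The ranges of both groups did not overlap in 6770 genes (47.2%), and in 3312 of the called ones. The median change of all genes was -0.06. It was 0.18 once each array was centred on its own median, a shift of all values by the lower medians at pnd2, and that scaling turned the split of called genes from 1329 rises and 2038 falls into 3055 rises and 1068 falls. Calls of small changes therefore depend on the scaling. Changes and list medians below are on the deposited scale, to be read beside the median of -0.06. Counts of risen and fallen list members are to be read beside 9.27% and 14.2% of all genes.

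**Figure D1:**
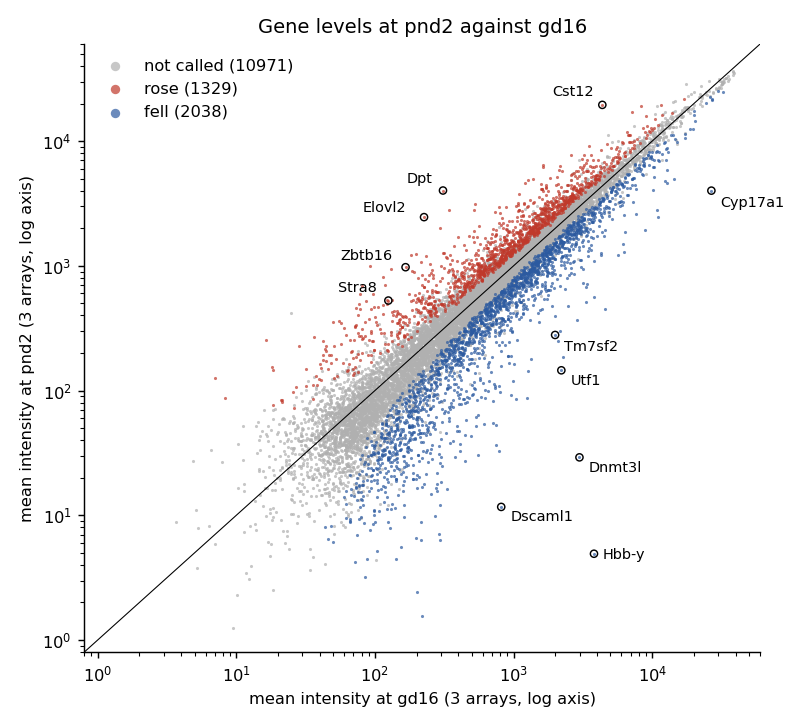
Mean intensity of each of the 14338 genes at gd16 (x axis, 3 arrays) and at pnd2 (y axis, 3 arrays), both on log axes, with the line of equality. Red points rose (1329), blue points fell (2038) and grey points were not called; Dnmt3l and Hbb-y lie far below the line and Dpt and Elovl2 above it.

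Genes of steroid synthesis moved apart: Star, Cyp11a1 and Cyp17a1 fell, while Hsd17b3, at the end of the pathway, rose. The arrays of whole testis do not tell which cells carried each of these transcripts. Of 23 listed genes of fetal Leydig cells and steroidogenesis 16 were measured, of which 5 fell, 5 rose and 6 were not called, with a median of -0.45 beside -0.06 for all genes. Cyp17a1, the enzyme that turns progestogens into androgen precursors, read 29975, 24926 and 25221 on the gd16 arrays, 12026, 18318 and 8585 at gd18 and 3882, 1914 and 6216 at pnd2. All 3 newborn values lay below those of gd16 and gd18, and they differed among themselves more than the gd16 values did. The mean fell 6.67-fold, from 26707 ± 2834 to 4004 ± 2153 (SD, n = 3 each), a log2 change of -2.88 ± 0.38 (adjusted p = 3.91e-05). Star, the carrier that admits cholesterol to the mitochondrion, read 8655, 5264 and 4933 at gd16 and 1279.9, 856 and 1732 at pnd2. It fell by 2.27 on the log2 scale (SE 0.60, adjusted p = 0.0101), and the ranges did not overlap.

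Cyp11a1, the side-chain cleavage enzyme, read 13253, 9727 and 9976 at gd16 and 2751, 2343 and 2288 at pnd2, a change of -2.14 ± 0.52 (adjusted p = 0.00574). This call was lost when the probe sets of a gene were averaged, since a near-background probe set of Cyp11a1 entered the mean with 55.7 against 58.9. Its electron donor Fdx1 read 16319, 12976 and 13571 at gd16 and 4737, 4191 and 5985 at pnd2 and changed by -1.53 ± 0.19 (adjusted p = 2.13e-05). Crhr1, the receptor of corticotropin-releasing hormone, fell from 456 ± 50.3 to 99.3 ± 17.2 (SD, n = 3 each), a change of -1.98 on the log2 scale (adjusted p = 0.00164). The 5 falls, of Cyp17a1, Star, Cyp11a1, Fdx1 and Crhr1, were called in each of the fits that left out 1 array. Hsd3b1, which carries out the step between Cyp11a1 and Cyp17a1, read 15717, 15938 and 12888 and 11435, 9496 and 9503: the groups did not overlap, yet its change of -0.55 missed the threshold (adjusted p = 0.311) and passed it when the spread was taken from the 6 or the 12 single-animal arrays alone. Nr5a1, the nuclear receptor that drives steroidogenic genes, had means of 2684 and 2680.4, with a change of 0.00 ± 0.32 (adjusted p = 0.998).

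The other direction was seen in Thbs2, a matrix glycoprotein carried in the list as a Leydig marker, which read 459, 212 and 443 at gd16 and 1586, 1379 and 1350.2 at pnd2 and rose by 1.96 ± 0.26 (adjusted p = 4.79e-05). Gja1, the gap junction protein connexin 43, rose by 0.52 ± 0.13 (adjusted p = 0.00638). Hsd17b3, the enzyme that makes testosterone from androstenedione, read 2098, 1539 and 1651 and then 3331, 3850.0 and 2544, a change of 0.86 ± 0.28 (adjusted p = 0.0317). Hsd17b1, which acts on oestrogens and androgens, read 2136, 1360.3 and 1646 and then 4318, 4285 and 3898, a change of 1.29 ± 0.38 (adjusted p = 0.0184). The values of both enzymes were higher on each pnd2 array than on each gd16 array. Cyb5a, the cofactor of the Cyp17a1 lyase reaction, rose by 0.34 ± 0.11 (adjusted p = 0.0344). The calls of Hsd17b3, Hsd17b1 and Cyb5a were lost without pnd2 replicate 1, pnd2 replicate 2, gd16 replicate 8 or gd16 replicate 9, with an adjusted p of up to 0.122, 0.077 and 0.125, so that only 2 rises remained in the list. Agt, Akr1cl and Vsnl1, at changes of -0.36, 0.28 and -0.94, were not called. Another probe set of Vsnl1 fell from 157 to a near-background 27.4 (-1.83 ± 0.42, adjusted p = 0.0043), and the gene was called with its probe sets averaged. Insl3 and Lhcgr were not analysed here.

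Genes shared with the adrenal cortex were followed beside this list. Of 12 measured genes of adrenal cortex and medulla 2 fell and none rose, beside 14.2% of all genes fallen and 9.27% risen. The number of falls was near that share. The list median was -0.58, with summed intensities of 1926 to 2497 per array at gd16 and 1159 to 1523 at pnd2. Mc2r, the receptor of adrenocorticotropin, read 216, 182 and 163 and then 73.2, 74.6 and 32.1 (-1.39 ± 0.48, adjusted p = 0.0446), and its partner Mrap 389.7, 267 and 372 and then 114, 122 and 165 (-1.23 ± 0.35, adjusted p = 0.0161). The call of Mc2r was lost in each of the 6 fits that left out 1 array, with an adjusted p of up to 0.17, and that of Mrap without pnd2 replicate 1, pnd2 replicate 2, gd16 replicate 7 or gd16 replicate 9, with up to 0.0618. Cyp11b1, the enzyme of the last corticosteroid step, read 778, 549 and 527 and then 169.9, 142 and 265. Its ranges did not overlap and its change of -1.60 ± 0.65 was not called (adjusted p = 0.083). Cyp21a1, which defines adrenal cortex, had means of 136 and 81.1, not called, and Th of the medulla was near background in both groups. Probe sets of Pnmt, the medullary enzyme that makes adrenaline, disagreed: the one that stands for the gene went from 212 to 397 (0.79, adjusted p = 0.158), another rose from 77.3 to 641 (2.95 ± 0.48, adjusted p = 0.000258), and the third, near background, was not called. With the probe sets averaged 1 gene of the list rose, and with only the 6 arrays in the fit 5 fell and 1 rose. The part of adrenal tissue in the changes of the steroid genes was not tested.

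Enzymes that metabolise androgens gave a mixed picture. Of 9 measured genes of adult-type Leydig cells and androgen metabolism 2 rose, 3 fell and 4 were not called, and the median of -0.29 was 0.12 without pnd2 replicate 2. With only the 6 arrays in the fit 4 rose and 4 fell. Sult1e1, the oestrogen sulfotransferase, was near background at gd16 with 12.5, 3.51 and 4.99. It read 123, 75.3 and 182 at pnd2, above every gd16 value, and rose by 2.29 ± 0.38 (adjusted p = 0.000275). Akr1c14, a 3-alpha-hydroxysteroid dehydrogenase, went from 218 ± 55.7 to 843 ± 96.3 (SD, n = 3 each) and rose by 1.87, with a call (adjusted p = 0.011) that was lost without gd16 replicate 8 (adjusted p = 0.0512). Ephx1, the microsomal epoxide hydrolase, read 3079, 3302 and 2780.4 and then 1013, 744 and 1175 and fell by 1.64 (adjusted p = 3.71e-06). Hsd11b2, which inactivates glucocorticoids, fell from 1609 ± 367 to 689.8 ± 21.4 (SD, n = 3 each), a change of -1.17 (adjusted p = 0.000639). Cyp2f2, a cytochrome P450 of adult-type Leydig cells, fell from 115 to a near-background 17 (-1.74 ± 0.52, adjusted p = 0.0199), a call lost without pnd2 replicate 1, pnd2 replicate 3, gd16 replicate 7 or gd16 replicate 9 (adjusted p up to 0.0813). Hsd3b6 was not analysed here.

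Cholesterol synthesis fell along nearly its whole length. Of 18 measured genes of the list 16 fell, none rose and 2 were not called, against 14.2% of all genes fallen, and the median change was -1.04 beside -0.06. The summed intensity of the 18 genes was 65669 to 79399 per array at gd16 and 33011 to 36782 at pnd2. Tm7sf2, a sterol 14-reductase late in the pathway, changed most: it read 2471, 1765 and 1743 at gd16, 360.3, 737 and 242 at gd18 and 307, 288 and 242 at pnd2. The newborn values lay 7.14-fold below the fetal ones on average, with means of 1993 ± 414 and 279 ± 33.2 (SD, n = 3 each), a log2 change of -2.73 ± 0.32 (adjusted p = 1.1e-05). Most of this difference was already present at gd18, where it came to -2.23 (adjusted p = 0.000649).

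Enzymes of the first part of the route, from acetyl units to farnesyl units, fell by differing amounts. Hmgcs1, the synthase that opens the mevalonate route, read 18794, 17353 and 15662 and then 11574, 11332 and 8812 and changed by -0.71 ± 0.18 (adjusted p = 0.00859), a call lost without pnd2 replicate 3 (adjusted p = 0.0522). Among the mevalonate kinases and the decarboxylase, Pmvk changed by -1.38 ± 0.13 (adjusted p = 8.07e-07) and Mvd by -1.01 ± 0.16 (adjusted p = 0.00018), whereas Mvk, at -0.41, was not called (adjusted p = 0.104). Another probe set of Mvk fell from 632 to 393 (-0.66 ± 0.19, adjusted p = 0.0174), and the gene was called with its probe sets averaged and with only the 6 arrays in the fit. Idi1, the isomerase, fell by 0.87 (adjusted p = 0.00209) and Fdps, the farnesyl diphosphate synthase, by 1.38 (adjusted p = 3.9e-05). Ggps1, which leads away from sterols to geranylgeranyl groups, was not called, with a change of 0.12 (adjusted p = 0.529), though 1 of its other 3 probe sets rose (0.49, adjusted p = 0.0477).

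The committed sterol steps fell as well. Fdft1, the squalene synthase, fell by 0.74 (adjusted p = 0.0105) and Sqle, the squalene epoxidase, by 0.58 (adjusted p = 0.0213). Lss, which closes the sterol rings, fell by 1.49 (adjusted p = 5.49e-05). Cyp51, which removes the 14-methyl group of lanosterol, read 3060.4, 3045 and 2874 and then 1217, 1139 and 1009, with no overlap, and changed by -1.40 ± 0.16 (adjusted p = 6.71e-06). Msmo1, the 4-methyl oxidase, read 9963, 6595 and 6226 and then 2470.1, 2589 and 2675, and changed by -1.52 ± 0.18 (adjusted p = 1.03e-05). Nsdhl and Hsd17b7, which complete the 4-demethylation, fell by 0.98 and 1.33 (adjusted p = 0.000963 and 1.51e-05). Of the last steps, Ebp, the isomerase, fell by 0.46 (adjusted p = 0.0412), Sc5d, the desaturase, by 1.08 (adjusted p = 5.08e-05), and Dhcr7, the final reductase, by 1.34 (adjusted p = 0.000957). The call of Sqle was lost without pnd2 replicate 1, pnd2 replicate 2, gd16 replicate 7 or gd16 replicate 8 (adjusted p up to 0.0856) and that of Ebp in each of the 6 fits that left out 1 array (up to 0.16). With arrays centred on their medians 12 of the 18 genes fell, at a median of -0.80, and Hmgcs1, Fdft1, Sqle and Ebp were not called.

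Uptake and sensing of cholesterol did not move as a group: of 18 measured genes 2 rose, 2 fell and 14 were not called. With arrays centred on their medians 5 rose and 1 fell, and with only the 6 arrays in the fit 5 rose and 2 fell. Scarb1, the receptor through which steroid-making cells take up cholesterol from high-density lipoprotein, read 14629.8, 12311 and 11579 and then 5198, 4005 and 4644 and fell by 1.47 (adjusted p = 4.79e-05). Abca1, the exporter of cholesterol, rose by 0.53 (adjusted p = 0.0148) and Srebf1, a regulator of lipid synthesis genes, by 0.37 (adjusted p = 0.0123), while Stard4, a cytosolic sterol carrier, fell by 0.42 (adjusted p = 0.0365). The call of Abca1 was lost without pnd2 replicate 1 or gd16 replicate 7 (adjusted p up to 0.0834) and that of Stard4 without pnd2 replicate 1, pnd2 replicate 3, gd16 replicate 7 or gd16 replicate 9 (up to 0.118). Srebf2, the regulator of the synthesis genes above, was not called (-0.11, adjusted p = 0.683), nor were its partners Scap (0.33), Insig1 (-0.47) and Insig2 (0.04). A dimmer probe set of Scap went the other way, from 169 to 91.8 (-0.80 ± 0.26, adjusted p = 0.0383). The letters TCACNCCAC, a form of the sterol response element that Srebf proteins bind, were searched on both strands of the RefSeq promoter windows of assembly GRCm38.p6, which run from 250 bases before a gene's start to 50 after it. They occur in 1.44% of 27025 genes with a window and in 1 of 15 cholesterol synthesis genes with one, Hmgcs1. Its 250 bases before the start (chr13:119690101-119690350, plus strand) are shown because it is the gene of the list that carries the element, given in capitals, 137 bases before the start.
Hmgcs1: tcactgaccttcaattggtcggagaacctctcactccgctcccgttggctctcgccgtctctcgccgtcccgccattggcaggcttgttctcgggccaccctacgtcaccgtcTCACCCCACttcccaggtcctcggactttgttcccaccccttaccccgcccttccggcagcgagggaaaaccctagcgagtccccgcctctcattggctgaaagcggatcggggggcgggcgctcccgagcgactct

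Most measured genes of fetal germ cells fell. Of 29 listed genes of fetal male germ cells, the piRNA pathway and de novo methylation 24 were measured. Of these 15 fell, against 14.2% of all genes fallen, none rose and 9 were not called. The list median was -1.32 beside -0.06 for all genes. With arrays centred on their medians 13 genes of the list fell and 2 rose. With only the 6 arrays in the fit 18 fell and 1 rose. The summed intensity of the list was 48214 to 56807 per array at gd16 and 17551 to 24413 at pnd2. Dnmt3l, the partner of the de novo DNA methyltransferases, read 3129.8, 3213 and 2615 at gd16, 659, 989 and 2122 at gd18 and 7.28, 43 and 37.1 at pnd2. Every newborn value was near background, and the change was -5.94 ± 0.33 (adjusted p = 4.23e-09), from a mean of 2986 ± 324 to 29.1 ± 19.1 (SD, n = 3 each). The change was -1.40 from gd16 to gd18 (adjusted p = 0.0215) and -4.55 from gd18 to pnd2 (adjusted p = 4.72e-07).

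The Piwi proteins, which hold the small RNAs, fell together. Piwil4, the nuclear member that guides methylation of transposons, read 787, 1206 and 904 at gd16 and 98, 129 and 51.4 at pnd2, a change of -3.14 ± 0.43 (adjusted p = 5.27e-05). Piwil2, the cytoplasmic member, fell from 3047 ± 153 to 1123 ± 163 (SD, n = 3 each), a change of -1.43 (adjusted p = 0.000962). Piwil1, better known from later spermatogenesis, was dim at gd16 with a mean of 152 and near background at pnd2 with 33.4 (-1.66 ± 0.39, adjusted p = 0.00414).

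Proteins that assist the Piwi proteins followed. Tdrd9, a Tudor domain helicase, read 2693, 2825 and 3064 at gd16 and 258, 461 and 387 at pnd2 (-2.92 ± 0.29, adjusted p = 2.26e-06). Mael, of the germ granules, read 11102, 11606 and 9878 and then 2154, 3410.3 and 2799 (-1.98 ± 0.55, adjusted p = 0.0136), a call lost without pnd2 replicate 1 (adjusted p = 0.0561). Morc1, needed for transposon silencing, fell by 2.25 (adjusted p = 0.00117) and Gtsf1, a Piwi cofactor, by 2.18 (adjusted p = 9.81e-05). Smaller falls were those of Nxf2, an RNA export factor, by 1.78 (adjusted p = 0.00129), and of the helicase Mov10l1 by 1.42 (adjusted p = 0.00318). The Tudor proteins Tdrd1, Tdrd5 and Tdrd7 fell by 1.42, 1.40 and 1.14 (adjusted p = 0.00299, 0.00586 and 0.000237). Henmt1, which methylates piRNA ends, and Tex101, a germ cell surface protein, fell by 1.24 and 0.98, calls that were lost without pnd2 replicate 1, pnd2 replicate 2, gd16 replicate 7, gd16 replicate 8 or gd16 replicate 9 for Henmt1 and without pnd2 replicate 1, pnd2 replicate 3, gd16 replicate 7, gd16 replicate 8 or gd16 replicate 9 for Tex101 (adjusted p up to 0.146 and 0.211).

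General germ cell markers did not share this size of change. Ddx4, the germ cell helicase, read 2733, 3771 and 2668 and then 1399.6, 2040.4 and 1841. The groups did not overlap, and the change of -0.79 ± 0.33 was not called (adjusted p = 0.0897). Dazl, an RNA-binding protein of germ cells, read 3266, 3429 and 3526 and then 3789, 5422 and 5704, a change of 0.52 ± 0.33 that was not called (adjusted p = 0.277). Asz1, Rnf17, Tdrd12, Tdrkh, Dnmt3b and Pld6 were not called either, with changes from -0.79 (Asz1) to 0.47 (Pld6). Another of the 4 kept probe sets of Rnf17, a Tudor protein, fell from 1042 to 138 (-2.75 ± 0.29, adjusted p = 3.99e-06), and those remaining, at -0.87 and -0.57, were not called. With the probe sets of a gene averaged, Rnf17 was called and 17 genes of the list fell. Nanos2 was not analysed here.

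The promoter windows of these genes were searched for a sequence that the choice of genes did not use. The letters CACGTG, the E-box bound by helix-loop-helix factors, read the same on both strands and occur in 8.09% of the 27025 genes with a window. They occur in 10 of 21 germ cell and piRNA genes with a window (47.6%): in 7 of the 13 that fell and in 3 of the 8 that did not pass the test. Genes with several start sites have several windows and count once if any holds the letters. The 4 fallen genes with the largest change that carry it are shown, as the 250 bases before the start with each E-box in capitals: Dnmt3l at chr10:78049592-78049841 (plus strand), the second of its 3 start sites, Tdrd9 at chr12:111971309-111971558 (plus strand), Mael at chr1:166238745-166238994 (minus strand) and Nxf2 at chrX:134964755-134965004 (minus strand).
Dnmt3l: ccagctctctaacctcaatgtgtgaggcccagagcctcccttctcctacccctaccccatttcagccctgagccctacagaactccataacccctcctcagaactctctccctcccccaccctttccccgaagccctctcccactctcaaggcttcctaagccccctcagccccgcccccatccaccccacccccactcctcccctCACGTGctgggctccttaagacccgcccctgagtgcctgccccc
Tdrd9: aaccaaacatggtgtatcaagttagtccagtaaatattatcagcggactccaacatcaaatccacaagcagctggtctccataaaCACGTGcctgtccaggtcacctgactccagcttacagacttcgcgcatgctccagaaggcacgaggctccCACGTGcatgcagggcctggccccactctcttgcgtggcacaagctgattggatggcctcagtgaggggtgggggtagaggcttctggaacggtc
Mael: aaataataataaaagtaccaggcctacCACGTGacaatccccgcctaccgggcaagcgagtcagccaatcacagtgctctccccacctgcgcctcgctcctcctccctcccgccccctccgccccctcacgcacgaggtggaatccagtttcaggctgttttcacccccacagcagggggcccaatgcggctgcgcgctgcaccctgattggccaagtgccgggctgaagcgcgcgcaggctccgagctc
Nxf2: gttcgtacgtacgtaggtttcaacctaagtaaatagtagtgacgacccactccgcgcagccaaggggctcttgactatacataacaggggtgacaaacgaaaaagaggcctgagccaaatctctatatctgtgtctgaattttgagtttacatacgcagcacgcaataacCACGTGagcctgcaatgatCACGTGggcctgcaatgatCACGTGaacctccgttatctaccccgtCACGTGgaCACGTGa
Nxf2 carries 5 E-boxes within the last 80 bases before its start and Tdrd9 carries 2, at 165 and 95 bases before it. The letters AAGGTCA, which Nr5a1 binds, occur in 5.38% of all genes. They were in none of the 10 Leydig genes with a window, in 2 of 15 cholesterol synthesis genes and in 1 of 21 germ cell genes. Cyp17a1, Star, Hsd17b1, Nr5a1, Cyb5a and Cyp11b1 of the Leydig list had no window and were not searched. Of the fallen Leydig genes 3 had a window. A match of letters is a description and not a site of binding, and a window without them says only that these letters are not in it.

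Probe sets of Dnmt3a, the methyltransferase that works with Dnmt3l, disagreed. The one with the highest mean read 1807, 1635 and 2103 at gd16 and 2034, 2016 and 1895 at pnd2 and was not called (0.11 ± 0.20, adjusted p = 0.745). Of the other 4 kept probe sets 2 fell, from 2050 to 527 (-1.94 ± 0.25 SE, adjusted p = 3.77e-05) and from 2189 to 716 (-1.58 ± 0.18, adjusted p = 9.75e-06). The other two went from 1754 to 1087 (-0.72, adjusted p = 0.0542) and from 1509 to 1127 (-0.41, adjusted p = 0.218). Averaged over all its probe sets, Dnmt3a changed by -0.91 (adjusted p = 0.000974). The files do not tell which transcript each probe set reads.

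Pluripotency genes, which early germ cells keep active, had 8 falls and no rise among 28 measured genes, with a median of -0.65. With only the 6 arrays in the fit 12 fell and 2 rose. Utf1, a chromatin factor, read 1950.4, 2669 and 2011 at gd16 and 106, 193 and 137 at pnd2 (-3.75 ± 0.28, adjusted p = 9.78e-08). Dppa3, which guards maternal and germline methylation, read 417, 1457 and 380.2 and then 51.2, 25.1 and 33.6. Replicate 8 stood well above the other gd16 arrays, and the newborn values were near background (-3.46 ± 0.45, adjusted p = 3.03e-05). Its gd14 mean was 14012, so the stage at gd16 was already low for this gene. Dppa4 fell from 4570.3 ± 1332 to 448 ± 130.2 (SD, n = 3 each), a change of -3.29 (adjusted p = 2.73e-05), and Pou5f1, the pluripotency factor Oct4, from 914 ± 301 to 189.6 ± 85.8, a change of -2.19 (adjusted p = 0.000851). Lefty2, a Nodal antagonist, Dnd1, an RNA-binding protein of germ cells, and Prdm1, a germ cell repressor, fell by 2.49, 2.29 and 1.34 (adjusted p = 2.73e-05, 0.000207 and 0.000564). The receptor Kit fell from 751 ± 173 to 366 ± 95.6 (SD, n = 3 each; adjusted p = 0.00839). Nanog was near background at both ages and Sall4 was not called (-0.12, adjusted p = 0.843).

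Genes of spermatogonia rose in the same newborn testes. Of 26 measured genes 9 rose, against 9.27% of all genes risen, 2 fell and 15 were not called, with a median of 0.25. Zbtb16, a repressor of undifferentiated spermatogonia, read 195, 158 and 146 at gd16, 370.4, 157 and 225 at gd18 and 677, 1086 and 1160.2 at pnd2. Each newborn value was higher than those of gd16 and gd18, and the change was 2.37 ± 0.59 (adjusted p = 0.00631). Gfra1 and Ret, the co-receptor and receptor kinase for the niche factor Gdnf, read 82.8, 119 and 95 and 108, 67.5 and 138 at gd16. They read 370.5, 468 and 563 and 335, 635 and 426 at pnd2, and rose 4.72-fold and 4.46-fold in mean intensity (2.00 ± 0.44, adjusted p = 0.00294, and 1.94 ± 0.35, adjusted p = 0.000615). Gdnf itself, made by Sertoli cells, was not called (0.26, adjusted p = 0.758).

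Transcription factors that act downstream of Gdnf also rose. Lhx1 read 6.91, 34.9 and 7.22 and then 260.3, 301 and 201, from near background to clear signal (2.89 ± 0.56, adjusted p = 0.000989). Pou3f1 read 31.7, 28 and 25.5 and then 244, 260.4 and 175 (2.28 ± 0.57, adjusted p = 0.00707), Etv5 rose by 1.08 (adjusted p = 0.00194) and Bcl6b by 1.16 (adjusted p = 0.002). Sohlh2, a factor of differentiating spermatogonia, rose by 1.50 (adjusted p = 0.00315), whereas Sohlh1, at -0.43, was not called (adjusted p = 0.348). Kit, which marks differentiating spermatogonia as well as earlier germ cells, fell, as did Taf4b, a germ cell subunit of the transcription machinery, by 1.28 (adjusted p = 0.000701). Id4 (means 733 and 1463) and Cdh1 (116 and 274) were not called (adjusted p = 0.0886 and 0.0581).

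Stra8, the gene that retinoic acid switches on at the entry to meiosis and in differentiating spermatogonia, read 121, 90.8 and 163 at gd16, 163, 150.3 and 132 at gd18 and 465, 249 and 865 at pnd2. All newborn values exceeded those of gd16 and gd18, but they spread widely, with replicate 2 lowest and replicate 3 highest. The mean rose 4.21-fold, from 125 ± 36 to 526 ± 312 (SD, n = 3 each), a change of 1.76 ± 0.48 (adjusted p = 0.0118). This call was lost without pnd2 replicate 3 or gd16 replicate 8, with changes of 1.33 to 2.19 and an adjusted p of up to 0.0793 over the 6 fits that left out 1 array.

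Genes of the meiotic chromosome went the other way: of 22 measured genes of the meiosis list 8 fell and 2 rose, Stra8 and Tex11, with a median of -0.24. Tex11, an X-linked crossover protein, read 129.7, 235 and 67.7 and then 318, 428 and 489 (1.49 ± 0.40, adjusted p = 0.0112), and was not called without gd16 replicate 9 (adjusted p = 0.0756). Hormad1, a protein of the chromosome axis, read 867, 752 and 589.8 and then 92.6, 162 and 69.6 and fell by 2.59 (adjusted p = 0.00017). Tex15, which acts in recombination and in transposon silencing, read 5574, 7616 and 5383 and then 1289, 1893 and 1332 and fell by 2.03 (adjusted p = 0.000265). Rec8, the meiotic cohesin, fell from 243 ± 63.3 to a near-background 54.5 ± 11.3 (SD, n = 3 each; adjusted p = 0.0098), and Spo11, which makes the double-strand breaks, from 316 ± 33.7 to 83.2 ± 37 (adjusted p = 0.00166). Meioc and the cohesin Stag3 fell by 1.37 and 1.34, and the synaptonemal proteins Tex12 and Sycp2 by 1.26 and 1.09 (adjusted p = 0.0083, 0.0172, 0.0113 and 0.015). Stag3 was also not called without gd16 replicate 7, and Sycp2 without gd16 replicate 8 or gd16 replicate 9. Stag3, Tex12 and Sycp2 were not called without pnd2 replicate 1, which left 5 falls, with an adjusted p of up to 0.0774, 0.0549 and 0.0559. Sycp3, which defines the synaptonemal complex, was not called (-0.52 ± 0.38, adjusted p = 0.354).

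**Figure D2:**
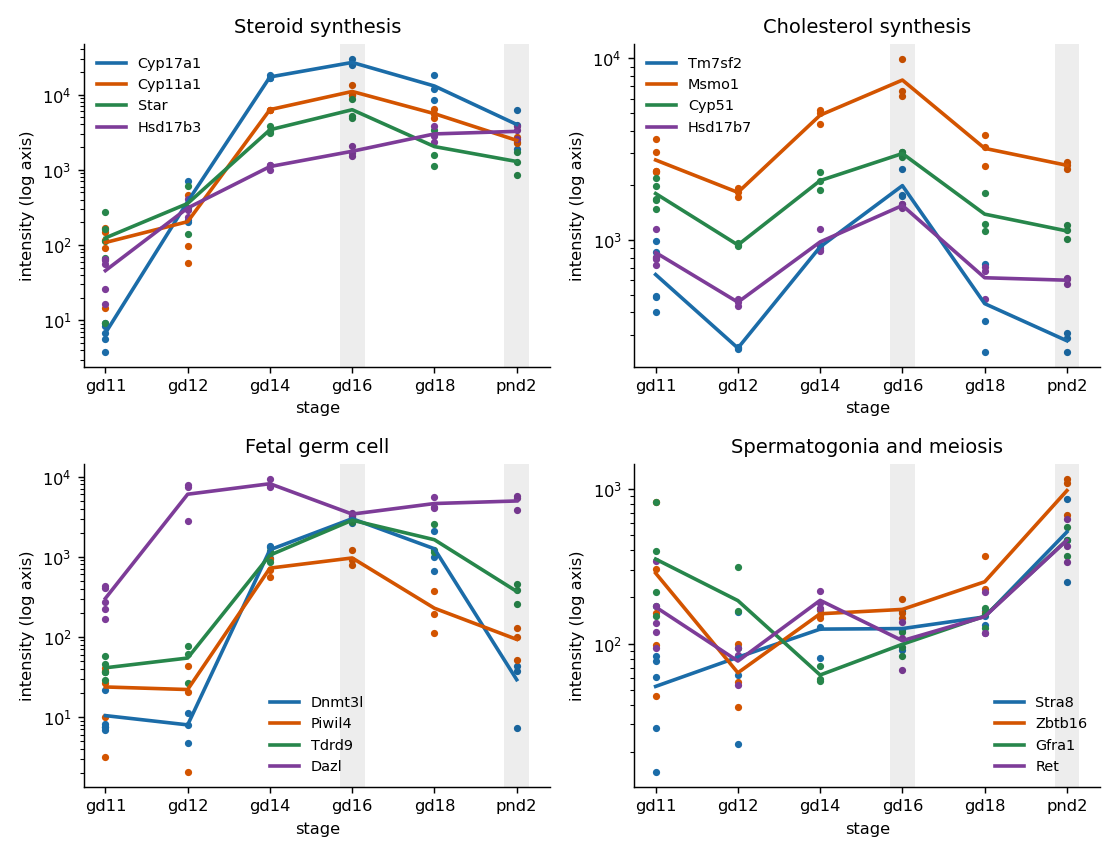
Intensity (log axis) by stage from gd11 to pnd2 for 4 genes each of steroid synthesis, cholesterol synthesis, fetal germ cells, and spermatogonia and meiosis. Points are single arrays, lines join stage means and grey bands mark gd16 and pnd2; Cyp17a1, Tm7sf2 and Dnmt3l stand at their highest stage mean at gd16, and Stra8 and Zbtb16 at pnd2.

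Sertoli cells showed rises of part of their genes. Of 33 measured genes 11 rose, 3 fell and 19 were not called, with a median of 0.63 beside -0.06. When the fit held only the 6 arrays, 18 rose and 5 fell. Fshr, the receptor of follicle-stimulating hormone, read 214, 169 and 235 at gd16 and 747, 896 and 733 at pnd2, a 3.85-fold higher mean (1.84 ± 0.25, adjusted p = 5.54e-05). Dmrt1, a regulator of male fate in Sertoli and germ cells, read 993, 1489 and 1145 and then 4205, 4602 and 4905 (1.92 ± 0.34, adjusted p = 0.000445). Cst12, a cystatin of Sertoli cells, read 5311, 2233 and 5551 and then 18929, 19094 and 20476, with replicate 8 the lowest at gd16 (2.26 ± 0.38, adjusted p = 0.000278). Cldn11, a tight junction protein of the blood-testis barrier, stayed at 241 and 252 on average at gd16 and gd18 and reached 756 ± 90.4 at pnd2 (SD, n = 3; 1.60 ± 0.30, adjusted p = 0.000695).

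Kitl, the ligand of Kit, rose by 1.52 (adjusted p = 0.00344) and Shbg, which binds sex steroids, by 1.67 (adjusted p = 0.000103). The regulators Nr0b1 and Sox8 rose by 1.58 and 1.36 (adjusted p = 0.00235 and 0.00642), Aard by 1.26 (adjusted p = 0.000148) and the signal Dhh by 0.84 (adjusted p = 0.00527). Inhbb, a subunit of inhibin and activin, rose by 1.10 (adjusted p = 0.0313), a call lost without pnd2 replicate 1, pnd2 replicate 2, pnd2 replicate 3, gd16 replicate 8 or gd16 replicate 9 (adjusted p up to 0.0967). Amh, the hormone that removes the Müllerian duct, read 1535, 1858 and 991 and then 2103, 2132 and 2933 and was not called (0.73 ± 0.38, adjusted p = 0.174). Sox9 read 614, 684 and 578 and then 1079, 985 and 1159, with no overlap, at a change of 0.76 ± 0.28 just outside the threshold (adjusted p = 0.0546), and its other probe set was called (0.88, adjusted p = 0.0412). Wt1 and Gata4 were not called (0.73 and 0.63, adjusted p = 0.165 and 0.225).

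The 3 falls in the Sertoli list were Rhox5, an X-linked homeobox gene, at 562, 883 and 720.0 and then 82.1, 185 and 70.7 (-2.54 ± 0.40, adjusted p = 0.000163), Col9a3, a collagen of fetal testis cords, at 1002 ± 328 and then 164 ± 75.5 (SD, n = 3 each; -2.48, adjusted p = 0.000137), and Cst9. Cst9, another cystatin, read 12211, 11554 and 6784 and then 4643, 777 and 6826: pnd2 replicate 2 stood far below its group, the ranges overlapped, and the change was -1.75 ± 0.54 (adjusted p = 0.0245). The call was lost without pnd2 replicate 2, gd16 replicate 7 or gd16 replicate 8, with changes of -2.35 to -0.81 and an adjusted p of up to 0.149. Among 11 measured hormone receptors 3 rose, none fell and 8 were not called, and with only the 6 arrays in the fit 5 rose and 2 fell. Beside Fshr these were Thra, a thyroid hormone receptor, at 0.71 (adjusted p = 0.00448), and Amhr2, the receptor of Amh, at 1.28 (adjusted p = 0.0386). Amhr2 lost its call in each of the 6 fits that left out 1 array (adjusted p up to 0.104). Esr1, the oestrogen receptor, was not called (0.39, adjusted p = 0.364).

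**Figure D3:**
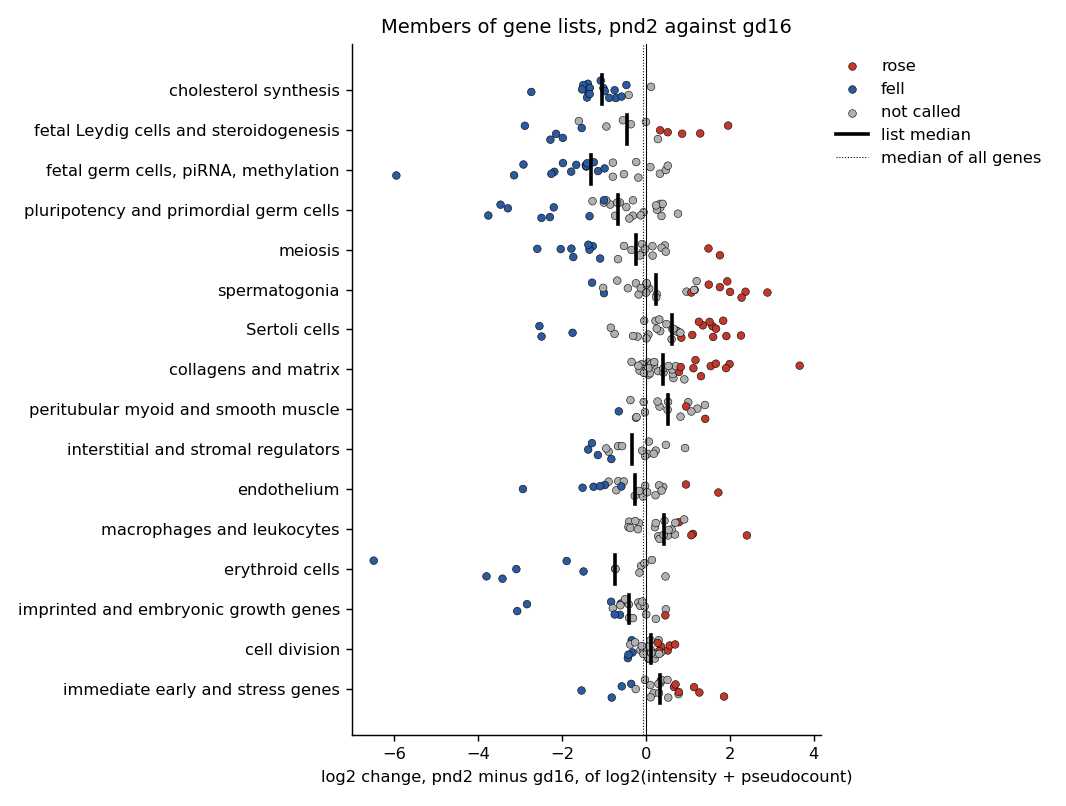
Log2 change from gd16 to pnd2 (x axis) of each measured member of 16 gene lists (rows). Red points rose, blue points fell, grey points were not called, thick bars are list medians and the dotted line is the median of all genes at -0.06; the medians of cholesterol synthesis at -1.04 and of fetal germ cells at -1.32 lie to the left.

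Matrix genes rose in part and none fell. Of 34 measured genes of collagens and matrix 10 rose, at a median of 0.42 over the list, and 24 were not called. With only the 6 arrays in the fit 18 rose and 1 fell. Dpt, dermatopontin, a small matrix protein that binds decorin, read 415, 179 and 335 at gd16, 2961, 3306 and 2459.6 at gd18 and 4643, 4142 and 3255 at pnd2. It was 13-fold higher at pnd2 on average (3.66 ± 0.33, adjusted p = 7.53e-07), and most of the difference was present at gd18 (3.21, adjusted p = 3.12e-05). Ogn, osteoglycin, of the same family as decorin, read 1765, 1349.6 and 1736 and then 6300.5, 6626 and 6459.6 (1.99 ± 0.30, adjusted p = 0.00012). Postn, Aspn and Eln, the elastic fibre protein, rose by 1.91, 1.67 and 1.54 (adjusted p = 0.00223, 0.000596 and 0.00395), and the laminin Lama2 by 1.31 (adjusted p = 8.68e-05). Mgp, Mfap4, Dcn and Col6a3 rose by 1.13, 0.83, 1.18 and 0.79 (adjusted p = 0.00899, 0.00371, 0.0392 and 0.0415). The calls of Dcn and Col6a3 were lost in each of the 6 fits that left out 1 array (adjusted p up to 0.109 and 0.136) and that of Mgp without gd16 replicate 8 (adjusted p = 0.0546). The basement membrane collagens Col4a1 and Col4a2 and the fibre collagen Col3a1 were not called, each with a change of 0.06.

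Contractile genes of peritubular myoid cells and smooth muscle had 2 rises and 1 fall among 17 measured genes. Over all genes 9.27% rose and 14.2% fell. The list median was 0.52, and with only the 6 arrays in the fit the list had 9 rises and 2 falls. Myh11, the smooth muscle myosin, read 643, 621 and 869 and then 1250.4, 2270.0 and 2448 (1.41 ± 0.37, adjusted p = 0.0085). Acta2, smooth muscle actin, read 14817, 13319 and 15624 and then 16867, 21809 and 24565, with no overlap, and was not called (0.52 ± 0.57, adjusted p = 0.56). Mylk, the myosin light chain kinase, rose by 0.96 (adjusted p = 0.021) and Notch3 fell by 0.64 (adjusted p = 0.00875). The call of Mylk was lost without pnd2 replicate 2, pnd2 replicate 3, gd16 replicate 7 or gd16 replicate 8 (adjusted p up to 0.0787), and that of Notch3 with arrays centred on their medians. Of 16 measured interstitial and stromal regulators 4 fell and none rose, and 8 fell with 2 rises when only the 6 arrays were fitted. They were Pdgfrb, a receptor of mesenchyme and pericytes (3155, 4017 and 3148 and then 1468, 1327 and 1137, -1.37 ± 0.30, adjusted p = 0.00285), Hey1 and Hes1, targets of Notch (-1.28 and -0.82, adjusted p = 1.29e-05 and 0.000721), and the ligand Wnt5a (-1.14, adjusted p = 0.0139), which was not called without pnd2 replicate 3 or gd16 replicate 8 (adjusted p up to 0.0654). Nr2f2 and Tcf21, markers of interstitial progenitors, were not called (0.04 and -0.66). Hhip was not called either, but all its other kept probe sets rose, by 0.94 to 0.99 (adjusted p up to 0.0202). A probe set of Lhx9 fell (-1.14, adjusted p = 0.00359), while the rest of its probe sets were not called. With the probe sets of a gene averaged, 1 gene of the list rose and 4 fell.

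Endothelial genes split. Of 21 measured genes 6 fell, 2 rose and 13 were not called, with a median of -0.27, and 10 fell with only the 6 arrays in the fit. Vwf, von Willebrand factor, read 980.0, 1631 and 1196 and then 149.8, 158 and 125 (-2.93 ± 0.45, adjusted p = 0.000148). Plvap, of fenestrated vessels, Flt1, a receptor of vascular endothelial growth factor, and the factors Egfl7 and Sox17 fell by 1.51, 1.25, 1.09 and 0.98 (adjusted p = 0.000169, 0.00224, 0.00209 and 0.00386), and Esam by 0.58 (adjusted p = 0.0368), a call lost without pnd2 replicate 2, pnd2 replicate 3, gd16 replicate 7, gd16 replicate 8 or gd16 replicate 9 (up to 0.168). Cd34, shared by endothelium and stromal cells, read 905, 817 and 932 and then 3341, 2852 and 2760.2 and rose by 1.73 (adjusted p = 2.67e-07). Sox18 rose by 0.95 (adjusted p = 0.0162), a call lost without pnd2 replicate 2 (adjusted p = 0.0561). Pecam1 and Cdh5, which define endothelium, were not called (-0.27 and 0.41).

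Red cell genes were high and uneven in the fetal samples. Of 13 measured erythroid genes 6 fell, none rose and 7 were not called, and the summed intensity was 4956 to 15101 per array at gd16 and 1629 to 2004 at pnd2. Hbb-y, an embryonic beta globin, read 1292, 8957 and 1152 at gd16 and 1.84, 12.1 and 0.84 at pnd2, all newborn values near background (-6.48 ± 0.46, adjusted p = 9.78e-08). Replicate 8 also had the highest gd16 value of the embryonic globins Hba-x (184, 1212 and 264) and Hbb-bh1 (63, 204 and 86), which fell by 3.09 and 1.89 (adjusted p = 0.00018 and 0.00249). Alas2, the red cell enzyme of the first step of heme synthesis, read 1554, 2249.9 and 3038 and then 217, 184 and 160.5 (-3.41 ± 0.36, adjusted p = 4.47e-06), and the anion exchanger Slc4a1 448, 1008 and 886 and then 29.3, 28.4 and 40.1 (-3.80 ± 0.61, adjusted p = 0.000222). Kel fell by 1.49 (adjusted p = 0.0237), a call lost without pnd2 replicate 2, gd16 replicate 7, gd16 replicate 8 or gd16 replicate 9 (up to 0.126). For the adult globin Hbb-b2 the probe set that stands for the gene fell by 3.55 (adjusted p = 6.71e-06), and another one, at -0.45, was not called (adjusted p = 0.304). The part of blood in the other falls was not tested.

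Macrophage and leukocyte genes had 4 rises, no fall and 18 genes not called among 22 measured, at a median of 0.43. With arrays centred on their medians 8 rose, and with only the 6 arrays in the fit 10 rose. Lyve1, of macrophages and lymphatic vessels, read 79.4, 35.7 and 103 and then 479, 395 and 501 (2.41 ± 0.59, adjusted p = 0.00599). The others, Lyz2, C1qc and Mrc1, rose by 1.08, 1.12 and 0.79 (adjusted p = 0.0148, 0.0416 and 0.0498), and without pnd2 replicate 1, pnd2 replicate 3 or gd16 replicate 8 only 1 gene of the list was called, Lyve1. C1qc and Mrc1 were also lost without pnd2 replicate 2 or gd16 replicate 7, and the highest adjusted p with 1 array left out was 0.0624 for Lyz2, 0.145 for C1qc and 0.157 for Mrc1. Csf1r and C1qa, which define macrophages, were not called (0.44 and 0.91). All 9 measured genes of neutrophil granules were lower at pnd2 and 3 were called, Prtn3 (-1.71 ± 0.31, adjusted p = 0.000546), Mpo (-1.63, adjusted p = 0.0426) and Ngp (-1.33, adjusted p = 0.0101), and 7 were called with only the 6 arrays in the fit. The call of Mpo was lost without pnd2 replicate 1, pnd2 replicate 2, pnd2 replicate 3, gd16 replicate 7 or gd16 replicate 8 (adjusted p up to 0.193) and that of Ngp without pnd2 replicate 3 or gd16 replicate 9 (up to 0.0675).

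Tissues that a dissection can carry along gave low values in both groups. Of 16 measured genes of skeletal and cardiac muscle 5 fell and 1 rose, with summed intensities of 2572 to 3991 at gd16 and 1519.9 to 1843 at pnd2; without pnd2 replicate 1, pnd2 replicate 2 or gd16 replicate 9 the falls were 3, and with only the 6 arrays or the 12 single-animal arrays in the fit they were 9 and 8. Myh7 read 442, 282 and 492 and then 74.1, 23.3 and 44.7 (-2.65, adjusted p = 0.000118), Tnnt2 rose by 1.62 (adjusted p = 0.00405) and Acta1, which read 34401 on the array of whole newborns, had means of 91.1 and 77.2. None of 6 measured liver genes was called, at a median of -0.55. Alb read 34607 in whole newborns and was near background in both groups. Of 11 measured genes of mesonephros and duct epithelium Emx2, a homeobox gene (574 ± 75.4 and then 122 ± 30.8, SD, n = 3 each, adjusted p = 0.00151), and Cdh6, a cadherin (-1.15, adjusted p = 0.02, lost without pnd2 replicate 1 or gd16 replicate 8, up to 0.105), fell, and Pax8 was not called (-0.93, adjusted p = 0.0514). Of 13 neural genes 1 fell, Isl1 (-2.92 ± 0.85, adjusted p = 0.017), a call lost without pnd2 replicate 3 or gd16 replicate 7 (up to 0.0607). With only the 6 arrays in the fit 4 neural genes fell and 1 rose. Beside these counts stand 9.27% of all genes risen and 14.2% fallen. The part of these tissues in the changes above was not tested.

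Genes of cell division changed little in size. Of 29 measured genes 6 rose and 4 fell, beside 9.27% of all genes risen and 14.2% fallen. The other 19 were not called, and the list median was 0.11. The rises were in the replication licensing genes Mcm2, Mcm3, Mcm4 and Mcm6 (0.57, 0.36, 0.28 and 0.31) and the cyclins Ccna2 and Ccnd2 (0.52 and 0.70), and the falls in Mki67, Cdc20, Bub1 and Ccne2 (-0.32, -0.34, -0.43 and -0.42). Without gd16 replicate 7 or gd16 replicate 9 there were 2 rises and 1 fall, without pnd2 replicate 3 2 rises and 3 falls, without pnd2 replicate 1 3 rises and no fall, without gd16 replicate 8 4 rises and no fall, and without pnd2 replicate 2 6 rises and 1 fall. Centring on array medians gave 11 rises and no fall, and averaging the probe sets of a gene gave 3 rises and 3 falls. Other probe sets of Mcm2, Mcm4, Mcm6 and Ccna2 were not called (0.02, -0.21, 0.04 and -0.05). Nor were those of Cdc20 and Bub1. The other kept probe sets of Ccnd2 all rose, as did those of Mcm3 apart from a near-background probe set. Ccnd2 was called in each of the fits that left out 1 array. Of 15 cell cycle inhibitors 1 rose and 2 fell, or 2 and 4 with only the 6 arrays in the fit. Cdkn2c, an inhibitor of cyclin D kinases, read 712, 647 and 676 and then 1494, 1368 and 1588 (1.10 ± 0.23, adjusted p = 0.00162), and Btg1 and Ccng2 fell by 0.29 and 0.34. The call of Btg1 was lost without pnd2 replicate 3 or gd16 replicate 7 (adjusted p up to 0.0805) and that of Ccng2 without pnd2 replicate 1, pnd2 replicate 2, gd16 replicate 7, gd16 replicate 8 or gd16 replicate 9 (up to 0.199).

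Embryonic growth genes fell in part. Of 20 measured imprinted and embryonic growth genes 6 fell, 1 rose and 13 were not called, with a median of -0.40. Hmga2, a chromatin protein of growing embryonic tissue, read 760.3, 1208 and 1017 at gd16, 376, 344 and 396 at gd18 and 93.3, 115 and 152 at pnd2 (-2.83 ± 0.21, adjusted p = 9.78e-08). Asb4, an imprinted gene of vessels, read 520.4, 518 and 576 and then 78.8, 10.3 and 68.2 (-3.06 ± 0.49, adjusted p = 0.000188). The imprinted genes Mest and Grb10 read 13218, 11892 and 12619.9 and 10668, 9747 and 10479.9 at gd16 and 7446, 6657 and 7124 and 6050.4, 6504 and 5889 at pnd2, tight groups without overlap, and fell by 0.83 and 0.74 (adjusted p = 6.72e-06 and 5.27e-05). The call of Grb10 was lost when the probe sets of a gene were averaged, and 4 genes of the list fell in that fit. Igf2bp3 fell by 0.62 (adjusted p = 2.14e-05). Its other kept probe sets changed by -0.48 to -0.27, and only the largest of these changes was called (adjusted p = 0.0465). Peg3 fell by 0.60 (adjusted p = 0.0388), while Ndn rose by 0.46 (adjusted p = 0.0162). The call of Peg3 was lost without pnd2 replicate 1, pnd2 replicate 2, gd16 replicate 7, gd16 replicate 8 or gd16 replicate 9 (up to 0.152) and that of Ndn without pnd2 replicate 3 or gd16 replicate 9 (up to 0.0789). Igf2 itself was not called (-0.18, adjusted p = 0.549).

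Among 18 measured clock and cold-inducible genes 5 rose and 3 fell. Cirbp, an RNA-binding protein induced by mild cold, read 729, 795 and 662 at gd16, 759, 645 and 571 at gd18 and 2719, 2829.9 and 2509 at pnd2, a step that lay wholly after gd18 (2.00, adjusted p = 1.87e-05). The circadian repressor Cry1 read 2439, 2785 and 2947 and then 786, 1075 and 698 (-1.67 ± 0.22, adjusted p = 3.01e-05), and Per2 and Ciart fell by 0.88 and 0.87 (adjusted p = 0.00799 and 0.0162). The output regulators Dbp and Tef rose by 1.18 and 0.77, Nr1d1 by 1.65 and Cry2 by 0.56 (adjusted p = 0.00376, 0.00812, 0.0147 and 0.0104). Without pnd2 replicate 2, Nr1d1 and Cry2 were not called and 3 rises were left. The call of Nr1d1 was also lost without gd16 replicate 9, that of Cry2 without gd16 replicate 7 and that of Ciart without pnd2 replicate 1, pnd2 replicate 2 or gd16 replicate 9, with adjusted p up to 0.0608, 0.074 and 0.0672. The hour and temperature at dissection were not analysed here.

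Of 23 measured immediate early and stress genes 6 rose and 4 fell, all 4 of these heat shock genes. Hsph1, a co-chaperone, read 2235, 2699.7 and 2839 and then 929, 878 and 825 (-1.53 ± 0.12, adjusted p = 2.13e-07), Hsp90aa1 fell by 0.58, Hspa1b by 0.81 and Hspa8 by 0.35 (adjusted p = 0.000556, 0.0251 and 0.00153). The rises were in Egr1 (1886, 1789.7 and 2483 and then 7509, 3816 and 4212), Egr2, Fos, Ier2, Ier3 and Nr4a1, genes that respond within minutes to growth signals and handling, by 1.27, 1.86, 1.15, 0.67, 0.71 and 0.78. The call of Nr4a1 was lost without pnd2 replicate 2, gd16 replicate 7, gd16 replicate 8 or gd16 replicate 9, that of Hspa1b without pnd2 replicate 2, gd16 replicate 7 or gd16 replicate 8, that of Ier3 without pnd2 replicate 1 or gd16 replicate 8 and that of Ier2 without pnd2 replicate 1 (adjusted p up to 0.285, 0.113, 0.0955 and 0.0624). Centring on array medians gave 11 rises and 2 falls in this list.

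The intermediate stage placed the changes in time. The steps from gd16 to gd18 and from gd18 to pnd2 share their arrays with the whole comparison and with each other. In the first step 244 genes rose (1.7%) and 456 fell (3.18%), and in the second 364 rose (2.54%) and 754 fell (5.26%). Of the 323 genes that rose at least 2-fold, 202 had their larger change from gd16 to gd18 and 121 from gd18 to pnd2, and 303 had a gd18 mean between both ends. Of the 820 that fell, 270 had the larger change in the first step and 550 in the second, and 724 had a gd18 mean between. Over all 6 stages, 286 of the 323 risen genes had their highest mean at pnd2, and 507 of the 820 fallen ones at gd16, 106 at gd14 and 48 at gd18. All these genes were chosen by their difference between gd16 and pnd2. That choice itself favours a gd18 mean between both ends and a highest mean at pnd2 or gd16. The lower of both means was near background for 414 of the 820 falls and 50 of the 323 rises.

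Gene groups differed in which step held their calls. Of the cholesterol synthesis genes 13 fell in the first step (median -0.77) and 1, Pmvk, in the second (-0.24). Of the germ cell and piRNA genes 9 fell in the first (-0.98) and 2, Dnmt3l and Tdrd9, in the second (-0.11). Matrix genes had 6 rises in the first and none in the second, where 1 fell. Spermatogonial genes had no rise in the first and 4 in the second (Gfra1, Ret, Bcl6b and Pou3f1), with 1 fall in each. Of the Leydig genes 1 fell and 2 rose in the first (median 0.02), and 3 fell and none rose in the second (-0.21). Endothelial genes had no fall in the first and 6 in the second, with 1 rise in each. The difference between the steps was not tested.

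The gd16 arrays were not alike over the changed genes. Positions were counted over these genes alone, so whether they are particular to them cannot be told. Of the 323 risen genes, gd16 replicate 8 was the lowest of its group in 186 (57.6%), replicate 7 in 70 and replicate 9 in 67. Dpt, Thbs2, Cst12 and Stra6 are examples. Of the 820 fallen genes it was the highest in 240, against 373 for replicate 9 and 207 for replicate 7. It was also the lowest in 331 of the fallen genes (40.4%), against 278 for replicate 7 and 211 for replicate 9. At pnd2, replicates 1, 2 and 3 were the lowest in 98, 110 and 115 of the risen genes and in 343, 209 and 268 of the fallen ones. Without gd16 replicate 8 there were 2498 called genes, 941 risen and 1557 fallen, within the range of 2463 to 2606 over the 6 fits that left out 1 array.

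The 12 largest rises among genes whose groups did not overlap were Dpt, Elovl2, Glb1l3, Kcng2, 4930550L24Rik, Lhx1, Qpct, Rarres1, Tmem114, Ocln, Dner and Tppp3, from 3.66 down to 2.58. Elovl2, which lengthens polyunsaturated fatty acids, read 271, 178 and 229 at gd16 and 2637, 2264 and 2465 at pnd2 (3.33 ± 0.30, adjusted p = 8.77e-07). Ocln, occludin of the tight junction, read 139, 148 and 306 and then 1357, 1169 and 1236 (2.61 ± 0.39, adjusted p = 0.000112). Glb1l3, a relative of beta-galactosidase, read 71.8, 68.6 and 136 and then 668, 1093 and 1249 (3.16 ± 0.33, adjusted p = 3.33e-06). Each of the 12 had its highest stage mean at pnd2 except Lhx1, whose highest was at gd11. Dner, a Notch ligand, was called (adjusted p = 0.0203) but lost this without pnd2 replicate 2, pnd2 replicate 3, gd16 replicate 8 or gd16 replicate 9 (adjusted p up to 0.0633).

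The 12 largest falls were Hbb-y, Dnmt3l, Dscaml1, Slc4a1, Utf1, Hbb-b2, Dppa3, 2310043M15Rik, Alas2, Rrad, Liph and Clca1, from -6.48 to -3.29. Dscaml1, a cell adhesion protein best known from neurons, read 831, 701 and 911 at gd16, 245, 314 and 923 at gd18 and 16.3, 6.87 and 11.8 at pnd2 (-4.62 ± 0.34, adjusted p = 9.78e-08). Rrad, a small G protein, read 550.1, 922 and 758 and then 17.4, 77.4 and 65.2 (-3.41 ± 0.43, adjusted p = 2.37e-05), and Liph, a phospholipase, 333, 247 and 284 and then 4.44, 7.83 and 8.77 (-3.39 ± 0.25, adjusted p = 9.78e-08). Clca1 read 258, 153 and 239.7 and then 2, 1.13 and 1.56 (-3.29 ± 0.31, adjusted p = 1.11e-06), and was not called once dim probe sets were kept in. For 9 of these 12 genes the newborn mean was near background, so the sizes of their falls are set by the pseudocount as well as by the data.

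**Figure D4:**
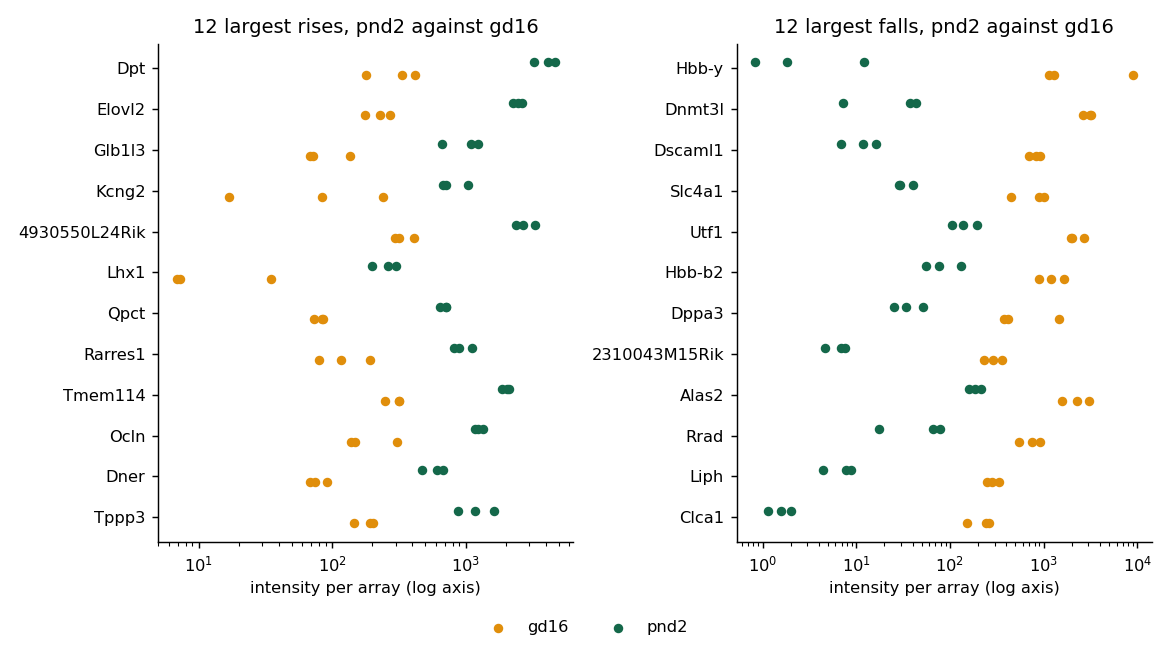
Intensity per array (x axis, log) of the 12 genes with the largest rise (left) and the 12 with the largest fall (right), ochre for gd16 and green for pnd2, 3 arrays each. The groups are apart in every row because only genes without overlap were picked. The spread within a stage is widest for Kcng2 at gd16 and Hbb-y at pnd2.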

How the data were processed

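Whole testes were hybridised to 1-colour mouse expression arrays, 1 sample an array. The deposited values are linear intensities per probe set which the authors made with GCOS, as the submitters' processing notes list it; neither its version nor the algorithm is stated there. The trimmed mean of each array, leaving out 2% at each end, is 500.002 to 500.003, so each array carries 1 scaling factor. The values contain no read counts, and precision is limited by the number of arrays.

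Of 45101 probe sets 34945 name 1 gene; 932 with several genes, 9160 with none and 64 controls were left out. Symbols were checked through 34741 Entrez matches. A probe set was kept when above the 40th percentile of its array on 3 or more of the 20 testis arrays (26713 kept), and the one with the highest mean log2 value stood for its gene (14338 genes). The pseudocount, 22.4, was set at percentile 20 of the values on testis arrays and the near-background limit, 71.6, at percentile 40. limma 3.58.1 (R 4.3.3) was fitted with lmFit and eBayes with an intensity trend on 20 testis arrays and 6 stage means (14 residual and 4.94 prior degrees of freedom), so that all stages share 1 estimate of the spread, and p-values were adjusted by Benjamini-Hochberg over all genes. The early stages were pools, so their spread may differ; fits on the 6 compared and on the 12 single-animal arrays were alternatives. So were pseudocounts of 16 and 64, no filter and a filter at the 60th percentile, quantile normalization, centring on array medians, no trend, the mean of a gene's probe sets, each probe set alone, and leaving out each array. The fit was tested on simulated data.

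Members, gene lists and the tests were chosen with earlier results of these data known. Named were 4 marker genes, the 12 largest rises and falls among called genes without overlap whose brighter stage is above the near-background limit, in each list the called members with the largest change and those that define it, and every member of the 5 lists of Leydig cells, cholesterol synthesis, germ cells, meiosis and spermatogonia where the text turns on it. Other genes in the text were chosen after their values were seen. Promoter windows are those of RefSeq, assembly GRCm38.p6.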

Additional observations from a re-analysis of the deposited data

How the results depend on the processing

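No paired analysis was possible because the samples of both stages came from different animals, each with its own dam. The count of called genes was 3367 in the reported fit. Over the alternatives that kept all 6 arrays and 1 value per gene, the lowest count was 3061 of 11048 tested genes, with the stricter filter. The highest was 4912 of 14338 genes, with the 6 arrays alone. Counts that moved by over 1.5 times were 3055 rises and 1068 falls with arrays centred on their medians, 2086 rises with the 6 arrays and 2010 with the 12 single-animal arrays. Testing every probe set on its own, which tests 26713 in place of 14338, gave 5183 calls, 2166 rises and 1738 calls of at least 2-fold. Leaving out 1 array gave 2463 to 2606 calls, 937 to 1011 rises and 1526 to 1614 falls. Centring moved the median of the Leydig list from -0.45 to -0.21 and that of cholesterol synthesis from -1.04 to -0.80. It also turned the sign of the medians of the cell cycle inhibitors (from -0.12 to 0.12), the sex chromosome check (from -0.18 to 0.061), retinoic acid (from -0.09 to 0.15), class I and interferon (from -0.10 to 0.14), mesonephros and duct (from -0.15 to 0.087) and glutathione (from -0.016 to 0.23). The adult-type Leydig median of -0.29 ranged from -0.59 to 0.12 with 1 array left out, the highest without pnd2 replicate 2. Dnmt3a had a change of 0.11, not called, with its brightest probe set and of -0.91 (adjusted p = 0.000974) as the mean of its probe sets, whose values disagree. The cause of the other moves was not tested. Of 566 listed or named genes 209 were called, 135 of them under every alternative run for them and 143 without each array in turn.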

Other observations

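Genes of retinoic acid handling changed singly. Of 16 measured genes 2 rose, 1 fell and 13 were not called, beside 9.27% of all genes risen and 14.2% fallen. With only the 6 arrays in the fit 3 rose and 4 fell. Stra6, the receptor that takes up retinol from its carrier, read 215, 57.3 and 282 at gd16 and 939, 825 and 973 at pnd2, with replicate 8 lowest at gd16 and no overlap (2.38 ± 0.44, adjusted p = 0.000732). Rara, a retinoic acid receptor, rose by 0.81 (adjusted p = 0.00579). Crabp2, a carrier of retinoic acid, read 437, 398 and 424 and then 67.5, 140.0 and 102 and fell by 1.86 (adjusted p = 0.00265). Cyp26b1, the enzyme that degrades retinoic acid in the fetal testis, was not called (0.63 ± 0.25, adjusted p = 0.0799).

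Of 22 measured genes of glutathione, metallothionein and detoxification 4 rose and 3 fell, and with arrays centred on their medians 8 rose and 1 fell. With only the 6 arrays in the fit 9 rose and 5 fell. Gstm1, a glutathione transferase, went from 11601 ± 1202 to 19430.3 ± 1216 (SD, n = 3 each; 0.75 ± 0.24, adjusted p = 0.0272), a call lost without pnd2 replicate 1, pnd2 replicate 3, gd16 replicate 8 or gd16 replicate 9 (up to 0.0889). The metallothionein Mt1 read 4768, 2312 and 3698 and then 1598, 1227 and 2315 (-1.05 ± 0.27, adjusted p = 0.00851), a call lost without pnd2 replicate 2 or gd16 replicate 7 (up to 0.058). Of 15 genes of class I antigen presentation and interferon response 1 rose, Tapbp (0.61, adjusted p = 0.0104), and 1 fell, Bst2 (-1.58, adjusted p = 0.0423). The call of Tapbp was lost without gd16 replicate 8 (up to 0.0616) and that of Bst2 without pnd2 replicate 1, pnd2 replicate 2, pnd2 replicate 3, gd16 replicate 7 or gd16 replicate 9 (up to 0.142).

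With 3 arrays a stage, changes of small size are open to single arrays, as the calls lost without 1 array show. For genes near background at 1 stage the size of the log2 change depends on the pseudocount. Probe sets read the transcripts of the array's design, and 1 probe set stood for each gene.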
